A study of Mus musculus with 4 samples.

Results

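Serpinb1a, Serpinb6a, Serpinb6b, Serpinb9 and Serpinf1 belong to the serpin family of protease inhibitors, and Timp1 and Timp2 encode tissue inhibitors of metalloproteinases. These 7 genes, of the 18194 genes that some probe set on the array names alone, were followed in mouse CD4+ T cells cultured towards the Th17 fate, in which cells make IL-17. They were chosen by name from genes of these families after differences between the same arrays had been seen, so every difference given for them describes the cultures and tests nothing. All 15 probe sets that name only 1 of the 7 genes were used, and all 7 genes exceeded the background level on at least 1 array.

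The cells came from C57BL/6J mice with the OT2 T cell receptor transgene. Naive CD4+ cells (CD44-, CD62L+) from spleen and lymph nodes were sorted and then cultured for 72 h on plate-bound anti-CD3 with anti-CD28, IL-6 at 20 ng/ml, TGF-beta at 2 ng/ml and anti-IL-4. There were 4 cultures, each on 1 array. The STAT3 wild type group was stat3 fl/fl OT2 and the STAT3-deficient group CD4-Cre stat3 fl/fl OT2, both with anti-IL-2 at 10 µg/ml. The STAT5 wild type group was stat5 fl/fl OT2 and the STAT5-deficient group CD4-Cre stat5 fl/fl OT2, both with IL-2 at 100 IU/ml. CD4-Cre deletes the floxed allele in cells that have expressed Cd4, so it acts in the T cell lineage before sorting. How many mice gave each culture is not stated, and the genotype field of both deficient samples ends in the words wild type, against their titles. The controls of the 2 pairs differ in both the floxed locus and IL-2, so their difference cannot be given to either.

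Serpins act as suicide substrates: the target protease cuts an exposed loop, and the serpin then folds around the enzyme and traps it. Clade B serpins such as Serpinb1a, Serpinb6a, Serpinb6b and Serpinb9 stay inside the cell and protect it from granule and lysosomal proteases, whereas Serpinf1 is secreted. TIMP proteins are secreted and block the active site of matrix metalloproteinases and of some ADAM proteases. STAT3, which IL-6 and IL-21 activate, drives the Th17 programme, and STAT5, activated by IL-2, opposes it at the Il17a locus.

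Levels are deposited values read as log2, so a difference of 1 is a 2-fold change, and a gene was called higher or lower at 2-fold or more. The background level was set at 6.20, the median of all values, and values under it were treated as background. With 1 array per group there is no replicate and no test, the number of arrays limits the precision, and the spread between probe sets of a gene is technical only. In bulk cultures, fewer cells expressing a gene and less RNA per cell cannot be told apart. Array medians ranged from 6.10 to 6.34. On the probe sets used, Stat5a and Stat5b were under background on the STAT5-deficient array, at 5.91 and 6.09, with differences of -5.01 and -5.24. A second Stat5b probe set stayed above background there, at 6.87 (-2.97), and a second Stat5a probe set read 4.76 (-5.98). Stat3 was lower on the STAT3-deficient array but remained above background, at 9.93 against 12.87 (-2.94), and of its 4 probe sets 2 differed by only -0.22 and -0.41. Which exons were deleted is not stated, so a probe set outside them would check nothing. Of 9 T cell markers, 8 were analysed, all 8 were above background and 0 passed 2-fold in any of the 3 comparisons. A second Cd28 probe set differed by -1.11 without STAT3, where the one used read -0.95.

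Without STAT3, the 7 genes split into 3 that were much lower, 2 that were much higher and 2 that stayed within 2-fold. Timp1, Serpinb1a and Serpinf1 were lower by 17.4-fold or more, while Serpinb6b and Serpinb9 were higher by 20.5-fold and 5.69-fold. Serpinb6a and Timp2 differed by -0.30 and -0.62. Among all 12440 genes above background on at least 1 array, 2.85% were higher and 7.23% lower. The choice of the 7 genes used this contrast, so nothing is read from their count. The median difference was -0.62 for the 7 genes and -0.20 for all genes. With each array centred on its median, all genes had a median of 0.05, with 4.22% higher and 4.67% lower, and the same number of the 7 genes, 5, passed 2-fold.

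Serpinb1a, an inhibitor of the neutrophil proteases elastase, cathepsin G and proteinase 3, read 11.06 with STAT3 and 4.62 without it. In the STAT5 pair it was at 9.97 with STAT5 and 8.51 without. The STAT3-deficient culture was the only one under the background level. The difference without STAT3 was -6.44, or 87.1-fold, and it was 29.1-fold with the low side raised to the background level. The other Serpinb1a probe set, which can match several transcripts, went from 7.27 to 3.08 (-4.19). It lay under the background level on the 3 arrays other than STAT3 wild type. Serpinb1a has close copies in the mouse genome. Of these, Serpinb1b was under the background level on all 4 arrays (highest 3.94) and Serpinb1c was not analysed here.

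Timp1, a secreted inhibitor of most matrix metalloproteinases that also acts as a growth factor, was at 13.78 in STAT3 wild type cells and 7.89 in STAT3-deficient cells. It was at 13.95 and 13.73 in the STAT5 wild type and STAT5-deficient cells. The 3 cultures with intact STAT3 thus lay within 0.22 of each other, and the STAT3-deficient culture was 59.3-fold below its control (-5.89). Unlike Serpinb1a, Timp1 remained above the background level without STAT3, so that neither side of this difference was limited by background. Timp1 was measured by 1 probe set.

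Serpinf1 encodes pigment epithelium-derived factor, a secreted serpin that inhibits no protease and restrains blood vessel growth. Its levels were 11.09 and 6.97 in STAT3 wild type and STAT3-deficient cells, and 10.25 and 10.15 in STAT5 wild type and STAT5-deficient cells. The STAT3-deficient culture was the low one, at -4.12 or 17.4-fold, and stayed above the background level. A second probe set read 9.89 and 6.88 in the STAT3 pair, a difference of -3.02, and 9.05 and 8.70 in the STAT5 pair.

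The sequences upstream of Timp1 and Serpinf1 are shown because both genes were far lower without STAT3 while above background on all 4 arrays. They are the 250 bases before the gene's start in RefSeq (build GRCm38.p6), 5′ to 3′ on the gene's strand. The motif searched was TTCNNNGAA, the palindromic core that STAT dimers bind, which reads the same on both strands. A match would be in capitals, and neither window holds one.
Timp1, chrX:20869916-20870165, plus strand: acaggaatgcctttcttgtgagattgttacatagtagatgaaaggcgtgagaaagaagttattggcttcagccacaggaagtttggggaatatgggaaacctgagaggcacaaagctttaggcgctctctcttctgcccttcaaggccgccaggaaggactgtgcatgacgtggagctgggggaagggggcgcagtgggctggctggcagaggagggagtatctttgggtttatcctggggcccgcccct
Serpinf1, chr11:75422624-75422873, minus strand: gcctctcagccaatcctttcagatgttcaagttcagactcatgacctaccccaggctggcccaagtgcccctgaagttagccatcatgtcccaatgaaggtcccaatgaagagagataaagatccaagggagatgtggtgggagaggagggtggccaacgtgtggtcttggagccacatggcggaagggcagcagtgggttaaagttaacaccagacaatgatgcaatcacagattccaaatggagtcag
The RefSeq table held a start for 6 of the 7 genes, and Serpinb1a was not matched. Of their 7 starts, 1 had the motif in this window, against 7.02% of 32851 starts in the table and 5.92% of the 12839 starts of genes compared here. The absence of these letters from a window says nothing of STAT binding elsewhere.

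**Figure D1:**
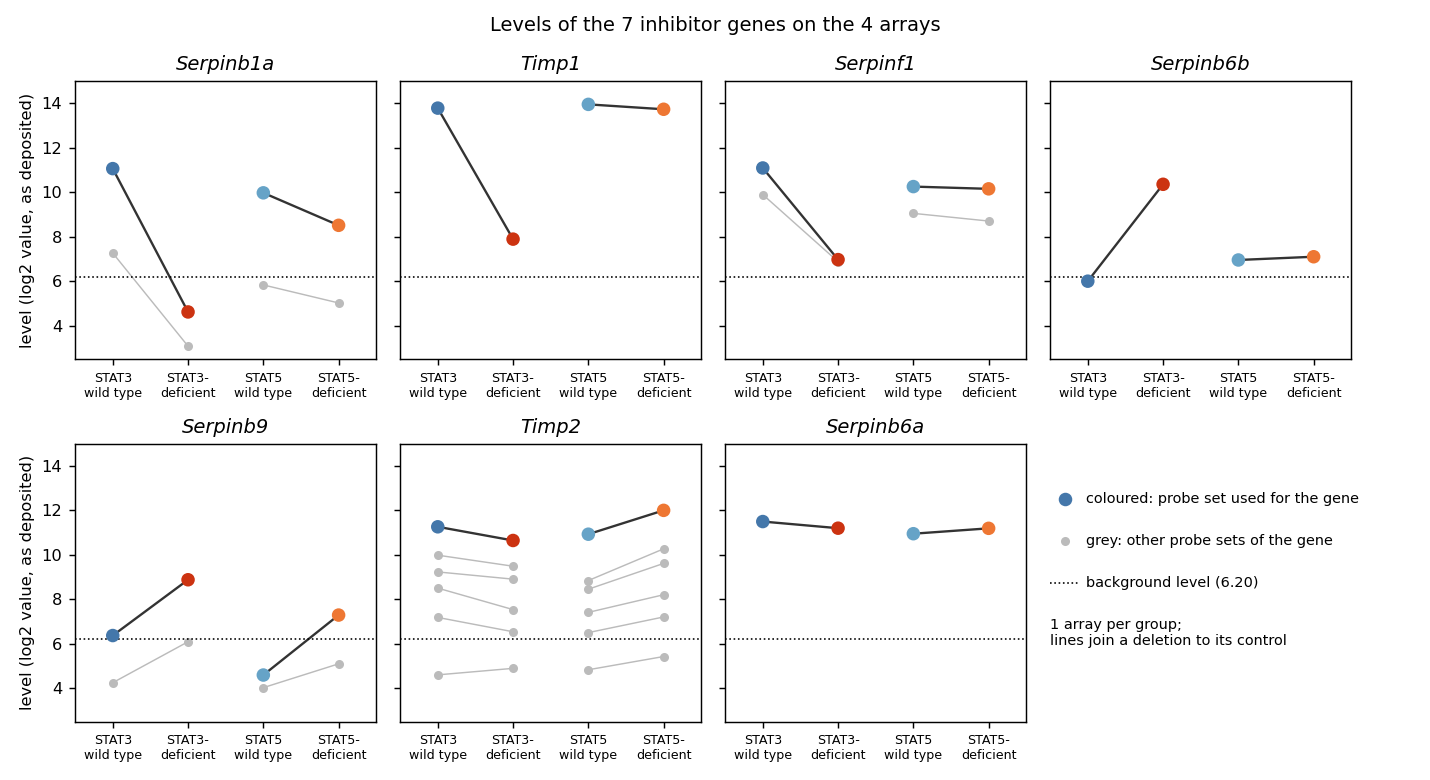
Level of each of the 7 genes (y axis, log2 value as deposited) on the 4 arrays (x axis, 1 array per group). Coloured points are the probe set used for the gene, grey points its other probe sets, lines join a deficient culture to its control, and the dotted line is the background level of 6.20. Serpinb1a, Timp1 and Serpinf1 are lowest on the STAT3-deficient array, at 4.62, 7.89 and 6.97, whereas Serpinb6b reaches 10.36 there and Serpinb9 is above its control in both deficient cultures.

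Serpinb6b and Serpinb9 were the 2 genes higher without STAT3. Serpinb6b, a close relative of Serpinb6a known to inhibit granzyme A, was at 6.00 in STAT3 wild type and 10.36 in STAT3-deficient cells. It was at 6.95 and 7.10 in STAT5 wild type and STAT5-deficient cells. The 3 cultures with intact STAT3 lay near the background level, and the STAT3-deficient culture stood alone above them, by 4.36 over its control (20.5-fold, or 17.9-fold with the control raised to the background level). Serpinb6b was measured by 1 probe set.

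Serpinb9, the inhibitor of granzyme B that shields killer cells from their own granules, had levels of 6.38 and 8.88 in STAT3 wild type and STAT3-deficient cells. In STAT5 wild type and STAT5-deficient cells it was at 4.60 and 7.30. Each deficient culture was above its own control and both were above either control. The differences were 2.51 (5.69-fold) without STAT3 and 2.70 (6.48-fold) without STAT5. Its other probe set never exceeded the background level, with differences of 1.84 and 1.07. The STAT5 wild type value lay under the background level, and raising it to that level left the STAT5 difference at 1.10 (2.14-fold).

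The upstream windows of Serpinb6b and Serpinb9, the genes higher without STAT3, and of Serpinb6a are shown with the same build, length and direction. Serpinb6a differed by less than 2-fold in all 3 comparisons. Among the 6 genes with a listed start, which leave out Serpinb1a, it alone holds the motif. Capitals mark that match, TTCCGGGAA, whose first base lies 77 bases before 1 of the gene's starts, the one shown.
Serpinb6b, chr13:32965011-32965260, plus strand: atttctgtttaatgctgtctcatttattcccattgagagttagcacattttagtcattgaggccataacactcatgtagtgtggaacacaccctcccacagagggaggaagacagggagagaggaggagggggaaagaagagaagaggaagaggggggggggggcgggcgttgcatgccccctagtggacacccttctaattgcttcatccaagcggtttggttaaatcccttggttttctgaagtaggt
Serpinb9, chr13:33004291-33004540, plus strand: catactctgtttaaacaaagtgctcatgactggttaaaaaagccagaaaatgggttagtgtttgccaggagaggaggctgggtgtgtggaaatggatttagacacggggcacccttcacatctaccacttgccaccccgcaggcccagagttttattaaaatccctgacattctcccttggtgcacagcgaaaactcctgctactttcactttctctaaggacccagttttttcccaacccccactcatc
Serpinb6a, chr13:34002795-34003044, minus strand: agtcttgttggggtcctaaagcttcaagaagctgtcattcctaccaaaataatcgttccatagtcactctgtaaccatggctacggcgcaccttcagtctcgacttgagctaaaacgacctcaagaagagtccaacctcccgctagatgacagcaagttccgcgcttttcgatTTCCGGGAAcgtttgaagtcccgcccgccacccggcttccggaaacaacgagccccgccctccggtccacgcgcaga
GC content was 49.6% in the Serpinb6b window, 47.6% in that of Serpinb9 and 54.4% in this Serpinb6a window, against a median of 52.4% over all starts.

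Serpinb6a, an intracellular inhibitor of cathepsin G and of some trypsin-like proteases, was the least variable of the 7 genes. It was at 11.50 and 11.20 in the STAT3 pair, control first, and 10.95 and 11.20 in the STAT5 pair, a range of 0.55. Its difference without STAT3 was -0.30, without STAT5 0.24. It was measured by 1 probe set, whose suffix marks it as matching several transcripts.

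Timp2, which inhibits metalloproteinases and also helps membrane-bound Mmp14 to activate Mmp2, was at 11.27 and 10.65 in the STAT3 pair and 10.93 and 12.00 in the STAT5 pair. The STAT5-deficient culture was the highest. Of its 6 probe sets, 5 were above background on at least 1 array. Without STAT5 all 6 lay above 0, from 0.60 to 1.43, and 3 of them passed 2-fold. Without STAT3 they ran from -0.97 to 0.29, and none passed 2-fold.

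Without STAT5, 3 of the 7 genes passed 2-fold: Serpinb9 and Timp2 were higher and Serpinb1a lower. Over all genes 1.86% were higher and 1.74% lower. The median difference was 0.15 for the 7 genes and 0.06 for all genes. Serpinb1a differed by -1.46 (2.75-fold), with its other probe set at -0.81 on values under background. Timp2 differed by 1.07 (2.10-fold), and by 0.96, short of 2-fold, when its probe sets were averaged. The other 4 genes stayed close to their control: Timp1 at -0.22, Serpinf1 at -0.10, Serpinb6b at 0.15 and Serpinb6a at 0.24.

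The effects of the 2 deletions rest on separate arrays and are set side by side here. The STAT3 pair had anti-IL-2 and the STAT5 pair had IL-2. A gap between the effects therefore cannot be given to the deleted gene or to IL-2 alone. The STAT5 effect minus the STAT3 effect was 5.67 for Timp1, 4.98 for Serpinb1a and 4.02 for Serpinf1, the genes lower without STAT3. It was -4.21 for Serpinb6b, and 0.19 for Serpinb9, which was higher after either deletion. With values under background raised to that level, the gap of Serpinb9 turned to -1.41, past 2-fold, and that of Serpinb1a came to 3.40, so the likeness of the Serpinb9 differences rests on a value under background. Serpinb1a was lower after either deletion, and Timp2 differed in sign between them. No spread is known for these gaps, and they were not tested.

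**Figure D2:**
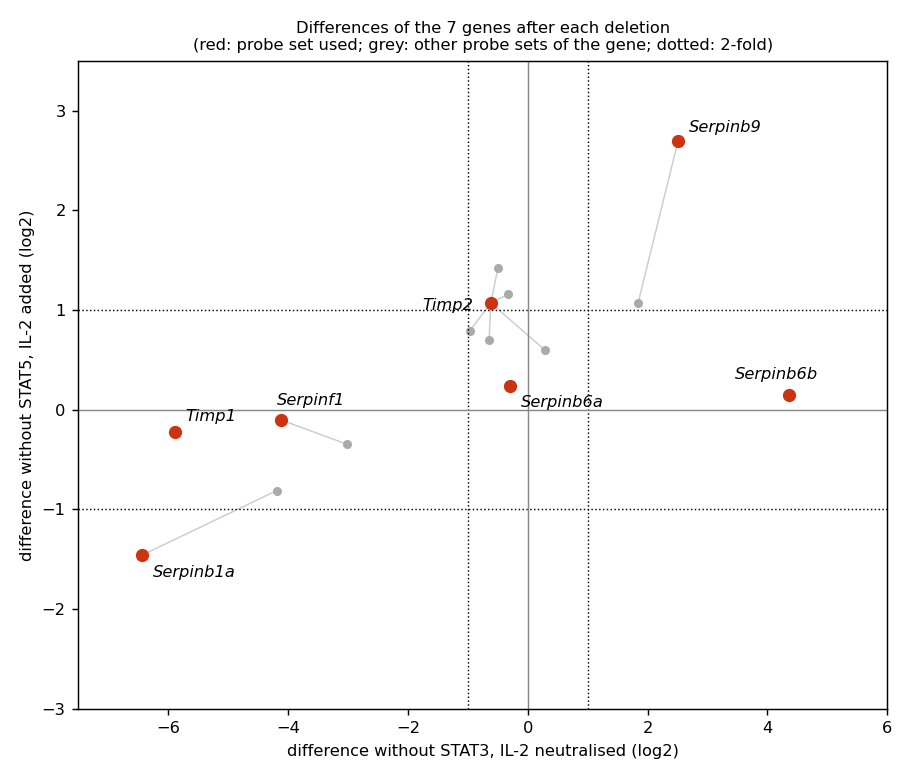
Difference of each gene without STAT3 (x axis, log2, IL-2 neutralised) against its difference without STAT5 (y axis, log2, IL-2 added), 1 pair of arrays each. Red points are the probe set used, grey points joined to them are other probe sets of the gene, and dotted lines mark 2-fold. Serpinb9 lies past 2-fold on both axes, at 2.51 and 2.70, Serpinb1a at -6.44 and -1.46, and Timp1, Serpinf1 and Serpinb6b lie far out on the x axis while within 2-fold on the y axis.

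Between the controls, STAT5 wild type minus STAT3 wild type, 2 of the 7 genes were lower and 0 higher. This comparison shares an array with each of the other 2. Over all genes 2.35% were higher and 2.95% lower, or 4.81% and 1.72% with each array centred on its median, which moved the median of all genes from 0.06 to 0.26. Serpinb9 was at -1.78 (3.42-fold), a difference that shrank to -0.18 when the value under background was raised to that level. Serpinb1a was at -1.09 (2.13-fold). Over the alternative settings it ran from -1.31 to -0.90, the latter with arrays centred and short of 2-fold. Serpinb6b stood at 0.95, or 1.14 with arrays centred, and Serpinf1 at -0.84.

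The levels of Serpinb6a (-0.55), Timp2 (-0.33) and Timp1 (0.17) differed by less than 2-fold between controls on the probe sets used, and that of Timp1 turned to -0.03 after intensity-dependent centring. The 6 Timp2 probe sets ran from -1.14 to 0.23 here, and 2 of them, above background on all 4 arrays, were lower by more than 2-fold. Ordered by level, Serpinb1a ran from STAT3 wild type through STAT5 wild type and STAT5-deficient to STAT3-deficient cells, each step past 2-fold. Serpinb9 ran from STAT3-deficient through STAT5-deficient and STAT3 wild type to STAT5 wild type cells, and its middle pair, at 7.30 and 6.38, was within 2-fold. For Timp1, Serpinf1 and Serpinb6b the 3 cultures with intact STAT3 were within 2-fold of their neighbour in the order.

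Serpinb1a, Serpinb6b, Serpinb9 and Serpinb6a lie in 1 cluster of Serpinb genes on mouse chromosome 13, by the RefSeq gene order of GRCm38.p6. That cluster holds 17 Serpinb genes and pseudogenes, of which 11 were analysed and 6 were above background on at least 1 array. Serpinb1a stands at its edge next to Wrnip1, and Serpinb6b and Serpinb9 are the next cluster genes analysed, so neighbours differed in opposite directions without STAT3. Wrnip1, at -0.12 without STAT3, and Nqo2 on the other side of the cluster, at 0.16, stayed within 2-fold. So did Serpinb9b (-0.09) and Serpinb6e (-0.40), which sit between Serpinb9 and Serpinb6a. Serpinb6e, a near copy of Serpinb6a, was read by a probe set that can match several genes. The probe set shared by Serpinb9e, Serpinb9f, Serpinb9g and Serpinb9h was under background on all 4 arrays, at 5.46 or less.

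**Figure D3:**
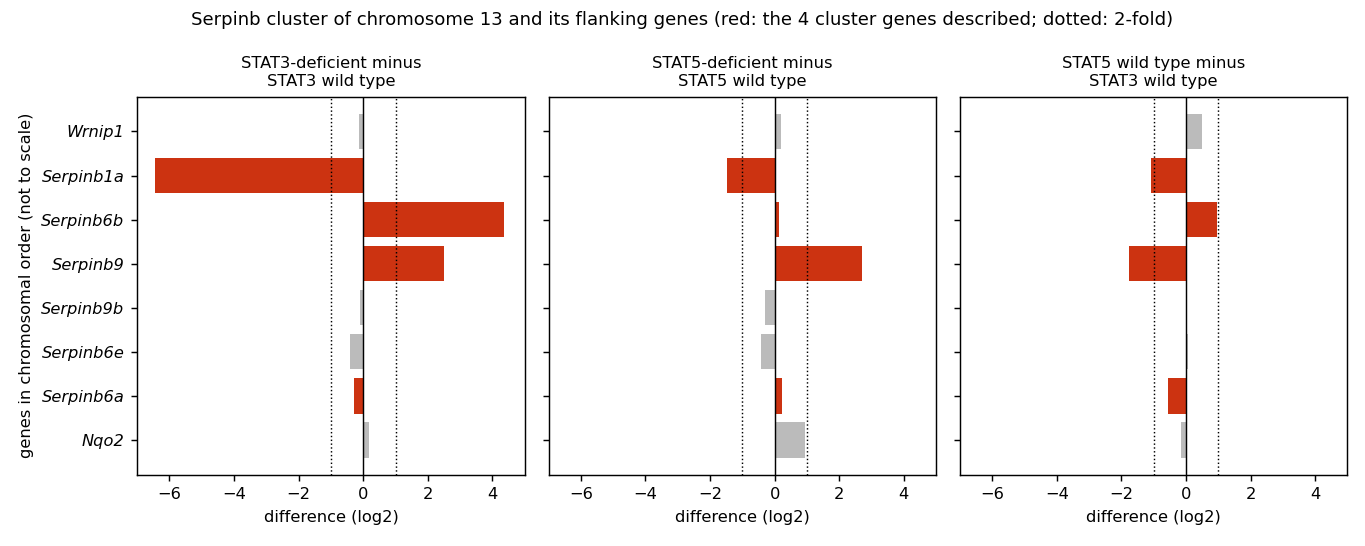
Differences (x axis, log2) of the Serpinb genes above background and of the flanking genes Wrnip1 and Nqo2, in chromosomal order (y axis, not to scale), for the 3 comparisons, 1 array per group. Red bars are the 4 cluster genes described, grey bars the others, and dotted lines mark 2-fold. Serpinb1a and its neighbours Serpinb6b and Serpinb9 point in opposite directions without STAT3, at -6.44, 4.36 and 2.51.

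Most other serpin genes were under background in these cells. Of 35 other serpin genes analysed, 9 exceeded background on at least 1 array, and without STAT3 1 of these was higher and 1 lower. The shares among all genes above background were 2.85% higher and 7.23% lower. Serpinc1, which encodes the clotting inhibitor antithrombin, went from 5.81 to 8.88 (3.07, or 2.68 with the low side raised to background), with 5.39 and 6.09 in the STAT5 pair. Serpina3n, a secreted serpin that can block granzyme B, went from 6.41 to 5.15 (-1.26), which came to -0.21 with the low side raised to background, so that 0 serpins were then lower. Without STAT5 and between the controls 0 of 9 passed 2-fold, and Serpinc1 (0.70) and Serpinf2, the plasmin inhibitor (-0.64), were farthest. The median of the 9 was -0.13 without STAT3, 0.05 without STAT5 and -0.07 between controls. Timp3, the matrix-bound TIMP, was above background on 1 array only (6.23 in the STAT3 wild type), and Timp4 was under background on all 4 arrays.

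Serine proteases, the class to which most serpin targets belong, were mostly under background: of 30 analysed, 12 exceeded it. Elane, Ctsg and Gzma, targets of Serpinb1a or Serpinb6b, did not. Prtn3, which encodes the Serpinb1a target proteinase 3, did so in the STAT5 pair only, at 6.39 and 6.29. It was at 5.67 and 5.07 in the STAT3 pair. Gzmb, the granzyme that Serpinb9 inhibits, was at 5.52 and 8.25 in the STAT3 pair and 7.76 and 9.29 in the STAT5 pair. It was thus higher after either deletion, as Serpinb9 was, at 2.72 and 1.53. The STAT3 wild type value of Gzmb was under background, and its difference came to 2.05 with that value raised. Between the controls Gzmb differed by 2.24, or 1.56 with that value raised, and Serpinb9 by -1.78, or -0.18. In all, 2 of 12 were higher and 3 lower without STAT3 (3 and 2 with arrays centred), the former being Gzmb and St14, a membrane protease (1.19), and the latter Prss12, a secreted neuronal protease (-2.52), Furin, a convertase that activates TGF-beta (-1.88), and F2, prothrombin (-1.66, above background in the control only, and -0.03 with the low side raised). The list's median was -0.33, or -0.03 with values raised to background. Without STAT5, 1 of 12, Gzmb, was higher and 0 lower. Between the controls 1 was higher and 2 lower, Prss12 (-3.20) and F2 (-1.39, also -0.03 with the low side raised), or 2 and 1 with arrays centred.

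Cathepsins, lysosomal proteases, were lower without STAT3 in 4 of 13 genes above background and higher in 0, with a median of -0.71. With arrays centred 3 of 13 were lower. Among all genes 7.23% were lower and 2.85% higher as deposited, with a median of -0.20. The 4 were Ctsf (-2.12), Ctsl (-1.69), Ctsc, the activator of granule serine proteases (-1.26), and Ctsa (-1.11). A second Ctsf probe set read -0.52, from 6.66 to 6.14, the latter under background. Without STAT5, 0 of 13 passed 2-fold and Ctsf, at -0.87, lay farthest. Its second probe set read 0.77 there, from 4.88 to 5.65, both under background. Between controls 1 was lower, Ctsw (-1.13), and none with arrays centred.

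Of the metalloproteinases, which TIMPs block, 2 of 16 above background were lower and 0 higher without STAT3. Over all genes 7.23% were lower and 2.85% higher. The 2 were the membrane proteases Adam9 (-1.28) and Adam19 (-1.13, and -0.84 on a second probe set), and with arrays centred 1 was lower. Without STAT5, 1 was higher, Mmp10 (1.38), and 1 lower, Mmp11, which went from 6.60 to 5.56 (-1.04, or -0.40 with the low side raised to background). Between the controls Adam12 (-1.28) and Adam19 (-1.03) were lower, or 1 of them with arrays centred. The list's median was -0.58 without STAT3 (-0.39 with values raised to background), 0.09 without STAT5 and -0.28 between the controls. Mmp2 was under background on all 4 arrays, and Mmp9 was at 6.52 or less.

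Among other protease inhibitors, 1 of 20 was higher without STAT3, Itih5, and 3 lower: Cst7, the cathepsin inhibitor cystatin F (-1.30), Spink2 (-1.22) and Birc3 (-1.07). Itih5 went from 5.02 to 6.40 (1.38), which came to 0.20 with the low side raised to background. Its other probe sets read 2.98 and 2.47. The first of these exceeded background on the STAT3-deficient array only (6.72), and the second on no array. With arrays centred the counts were 2 and 1. The median was -0.26 as deposited, against -0.20 for all genes, of which 2.85% were higher and 7.23% lower. Without STAT5 and between the controls 0 of 20 passed 2-fold, with Cst7 (0.66) and Itih5 (-0.77) farthest. Of 8 receptors and partners of the secreted members, 1 passed 2-fold in any comparison. It was Itga3, the integrin chain that binds Timp2, which differed by -2.77 without STAT3, with all of its 3 probe sets lower. Plxdc2 (0.99 without STAT5) and Plaur (0.96 between controls) were the farthest of that list elsewhere.

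**Figure D4:**
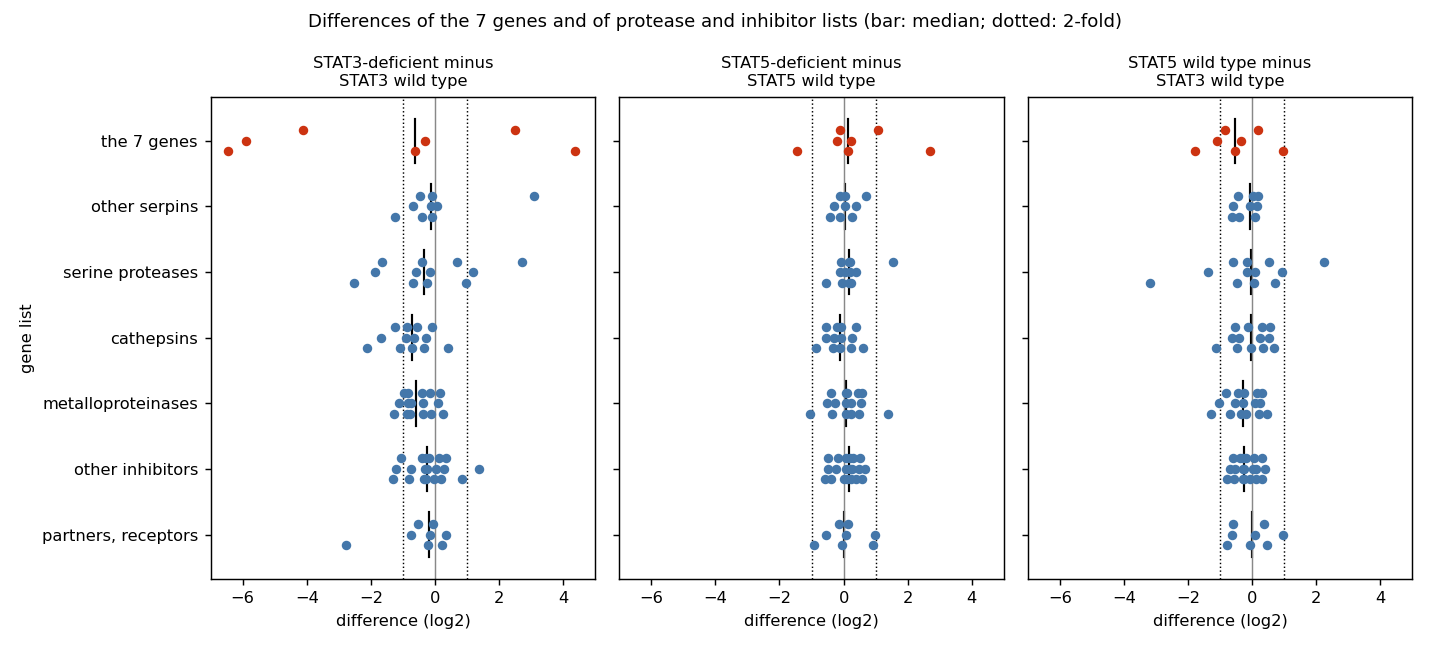
Differences (x axis, log2) of the 7 genes (red) and of the genes above background in 6 lists of proteases, inhibitors and partners (blue, 1 point per gene) for the 3 comparisons, 1 array per group. Black bars are medians and dotted lines mark 2-fold. Without STAT3 the 7 genes span -6.44 to 4.36, and Serpinc1, at 3.07, stands apart from the other serpins. On the lower side 4 of 13 cathepsins lie past 2-fold, against 7.23% of all genes.

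The genes with patterns most like each member were found by the distance between 4 array values, each gene centred on its own mean, over all genes above background. A distance of 0 would be the same pattern, and 4 arrays make many genes alike. Timp1 was closest to Il21 (0.36), Gcnt2 (0.61) and Il17a (1.05). Il21 and Gcnt2 were under background on the STAT3-deficient array, at 5.07 and 3.94, where Timp1 was at 7.89. Their STAT3 differences came to -5.10 and -3.87 with values raised to background, against -5.89 for Timp1. Serpinf1 was closest to Gpr15 (0.28), Lgr4 (0.56) and Fam217b (0.59). Lgr4 and Fam217b were under background on the STAT3-deficient array, at 5.82 and 4.90. With values raised, their STAT3 differences came to -4.34 and -3.49, against -4.12 for Serpinf1. Serpinb1a had no gene so near, with Socs3 (1.40), Mctp2 (1.47) and Il10 (1.54) the closest. Mctp2 and Il10 were under background without STAT3, as Serpinb1a was. Raised to background, their STAT3 differences came to -3.52 and -3.19, against -4.86 for Serpinb1a. These likenesses thus rest in part on values under background.

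Serpinb6b was closest to 4833407H14Rik (0.42), Il3 (0.46) and Ifng (0.52). All 3 were under background on every array with intact STAT3. Their STAT3 differences came to 2.22, 2.62 and 2.36 with values raised to background, against 4.16 for Serpinb6b, so the likeness rests on values under background. Ifng, the Th1 cytokine gene, was at 8.56 on the STAT3-deficient array against 4.84 or less elsewhere. Serpinb9 was closest to Samd9l (0.58), Gbp6 (0.66) and Trim12a (0.82). Trim12a was under background on both arrays of the STAT5 pair, and Samd9l and Gbp6 on its control, so their STAT5 differences came to 0, 0.99 and 0.71 with values raised to background. Timp2, with a narrow range, was closest to Macrod2 (0.10), Gm10044 (0.11) and Pde4b (0.15).

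Serpinf1, Timp1 and Timp2 are also made by stromal cells, so markers of other cells were read on the same arrays. Of 7 stromal markers, 3 exceeded background, and the summed linear value of all 7 was 4873 and 1556 in the STAT3 pair, control first, and 2659 and 2476 in the STAT5 pair. Most of the sum was Pdpn, a glycoprotein also made by Th17 cells (12.10, 10.38, 11.23 and 10.94 in that order), and the other marker that differed was Lum (8.06, 4.76, 6.13 and 8.34). The collagen genes Col1a1 and Col3a1, and Dcn and Pdgfra, were under background on all 4 arrays, and Col1a2 reached 6.34. The part of stromal cells in the Serpinf1 and Timp differences was not tested.

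For the cells that carry granule proteases, 0 of 2 NK cell markers analysed exceeded background on any array. Of 8 myeloid markers 4 did, and Itgam, Adgre1, S100a8 and Mpo were under background throughout. The summed linear values of the 8 were 564, 462, 476 and 586 in the same order. Csf1r (7.54, 7.12, 7.43 and 7.73) and Cd68 (6.94, 6.75, 6.39 and 6.49) exceeded background on all 4 arrays. Lyz2 did so on the STAT3-deficient array only (6.26) and S100a9 on the STAT5-deficient array only (6.29). Of 4 mast cell markers, Kit was higher on the STAT3-deficient array (5.67 and 7.42, a difference of 1.75, or 1.22 with the low side raised to background), where Serpinb6b and Serpinb9 were also higher. Tpsb2 exceeded background on the STAT3 wild type array only, at 6.36 against 5.94 without STAT3 (-0.42). Its other probe set, under background throughout, differed by 0.89. Cpa3 and Mcpt4 were under background on all 4 arrays. The part of such cells was not tested. Of 3 platelet markers, Pf4 was at 6.32 on the STAT5 wild type array and 5.14 or less elsewhere, with differences of -1.30 without STAT5 and 1.18 between the controls. These came to -0.12 and 0.12 with values raised to background. Above background on at least 1 array were 2 of 4 B cell, 2 of 2 CD8 T cell, 0 of 2 erythroid and 2 of 3 endothelial markers, and 0 of these passed 2-fold in any comparison.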

How the data were processed

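RNA of each of 4 cultures was labelled and read on 1 Affymetrix mouse array. The deposited log2 values were made with Affymetrix Power Tools, per the submitters' processing notes. Not given in the sources used here are its version, algorithm, background correction, centring and logarithm base. Log2 was taken from the range of 2.48 to 15.09, and another base would change every fold change. No genome build is named for the arrays, so RefSeq gave only gene names, gene order and upstream sequence.

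Of 45101 probe sets, 34958 name 1 gene in the platform annotation, 932 several and 9211 none, and only the first were used for genes. A gene took its probe set of highest mean. Genes were kept where the highest of 4 values exceeded 6.20 (percentile 50 of all values), which left 12440 of 18194 (68.4%). Signal over background was judged by this level alone.

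Differences were taken for 3 pairs of arrays, with no test, and called at 2-fold. The members and lists were chosen with earlier results of these data known. Named were the 7 members, the targeted genes, up to 4 genes per list and comparison past 2-fold (else the farthest), and the 3 likest patterns per member past 2-fold. Mmp2, Mmp9, St14, Elane, Ctsg, Gzma, Prtn3, Timp4, the other marker genes and the other genes of the Serpinb cluster were added after their values were seen. Alternatives were the mean of probe sets, leaving out multi-transcript probe sets, no filter or percentile 75, 3 normalizations (array median, quantile, loess with span 0.4), and 1.5-fold and 3-fold thresholds. Raising values under background to that level, for members and listed genes, was chosen after seeing the data. Calculations used Python 3.11.15 and statsmodels 0.14.6, and were tested on simulated data.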

Additional observations from a re-analysis of the deposited data

Results flagged for a closer look

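Timp2 differed by 1.07 without STAT5 and by -0.62 without STAT3, so its deficient culture lay above the control in one pair and below it in the other. It was noted for that opposite sign with 1 side past 2-fold, and the difference between the pairs was not tested. Lum, the small proteoglycan lumican read here as a stromal marker, differed by 2.22 without STAT5 and by -3.29 without STAT3, past 2-fold in opposite directions, and by 2.15 and -1.86 with values raised to background. Its 1 probe set lay above background on 2 of 4 arrays, and this difference between the pairs was not tested either.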

How the results depend on the processing

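Over 6 alternatives of probe set, normalization or background handling, 113 of 123 values of the 7 genes kept their side of the 2-fold limit, 5 lost a call, 5 gained one and 0 called values changed sign. All 41 values without STAT3 kept their side. Many of these values could not change, so the counts overstate how far the results were tried. Leaving out multi-transcript probe sets removed Serpinb6a and changed no value of the other genes. Averaging could not alter Serpinb6a, Serpinb6b or Timp1, each with 1 probe set. Raising values to background could alter only Serpinb1a, Serpinb6b and Serpinb9. Timp2 without STAT5 came to 0.96 with probe sets averaged and 0.999 after intensity-dependent centring. Between controls the count of genes past 2-fold, 2 as deposited, was 1 with probe sets averaged (Serpinb9 at -0.999), with values raised to background or at 3-fold, and 4 after quantile normalization, after intensity-dependent centring (Serpinb6b at 1.19, Serpinf1 at -1.07) or at 1.5-fold. Without STAT5 it was 3 as deposited, 2 with probe sets averaged or after intensity-dependent centring, and 1 at 3-fold. Over all genes, 1254, 448 and 659 passed 2-fold without STAT3, without STAT5 and between controls. At percentile 75 these were 774, 254 and 356, at 1.5-fold 3093, 1444 and 2584, and at 3-fold 522, 143 and 177. With no filter 679 passed without STAT5. Of the genes past 2-fold without STAT3, 71.8% were lower as deposited and 54.1% after quantile normalization. No replicate could be left out with 1 array per group. No paired analysis was possible either, since 1 array per group leaves no replicates to pair. Levels under 6.20 limit the size of differences of Serpinb1a, Serpinb6b and Serpinb9.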
